A study of Mus musculus with 6 samples.

Results

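Chemokines and their receptors were read in double-negative thymocytes, the T cell precursors without CD4 and CD8. The mice were RAG1-deficient (3 arrays) or mutant for both RAG1 and Ezh2 (RAG1/Ezh2 double mutant, 3 arrays). Every named probe set whose single gene is a Ccl, Cxcl, Xcl1 or Cx3cl1 ligand, a Ccr, Cxcr, Xcr1 or Cx3cr1 receptor, or an Ackr atypical receptor was taken, by symbol alone. These are 47 probe sets of 42 genes, out of 12422 non-control probe sets that name 8251 genes. Both groups lack RAG1, the recombinase subunit without which thymocytes stay at the double-negative stage. The double mutant is also mutant for Ezh2, the methyltransferase of Polycomb repressive complex 2. The labels do not give the alleles, how Ezh2 was mutated, or the strain, sex and age of the mice. Nor do they state that replicates were different mice, so p-values measure the spread among these arrays alone, and that spread may be technical. The question put to these transcripts is whether the Ezh2 mutation alters their level in thymocytes that RAG1 deficiency has arrested.

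Chemokines are small secreted proteins that guide cell movement through G protein-coupled receptors on the migrating cell. In the thymus, epithelium and other stroma make Ccl25, Cxcl12, Ccl19 and Ccl21, which act on Ccr9, Cxcr4 and Ccr7 to draw progenitors in and to place thymocytes in cortex or medulla. Other members serve inflammation: they are made by, or read by, monocytes, neutrophils, dendritic cells, NK cells and activated T cells. Such cells are present in small numbers in a thymus, so a chemokine transcript in a thymocyte preparation need not come from the thymocytes. In a bulk sample, fewer cells of a type and less RNA per cell cannot be told apart.

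The arrays were first set against their labels. Ezh2 read 1435, 1641 and 1790 in scaled intensity units on RAG1-deficient replicates 1, 2 and 3 and 292, 651 and 724 on the double mutant arrays, without overlap between the groups. An Ezh2 signal above the filter level (defined below) thus remained on every double mutant array. Sample titles come in 3 styles, each with 1 array of either group: numbered titles (replicate 1), titles that start with Rag (replicate 2) and titles that start with Thy (replicate 3). Rag1 transcript (93683_at) read 6933, 7241 and 7264 on RAG1-deficient and 5394, 5226 and 5171 on double mutant replicates 1, 2 and 3. These values did not overlap between groups, whereas those of the other Rag1 probe set (161740_r_at) did. Whether 93683_at lies in the deleted part is not given in the sources used here, so it does not check the labels. The T lineage genes Ptcra, Cd3e and Thy1 were well above the filter level everywhere. Ptcra was lower in the double mutant without overlap. Of 13 tested probe sets of double-negative thymocyte markers, 11 had a log2 difference (defined below) under 0, against 50.4% of all tested probe sets. Their median was -0.23, and 0 of the 13 passed the tests described below. For 2 of the 13 the groups did not overlap, where 2.92% of all tested lay lower and 4.21% higher without overlap. RAG1-deficient replicate 1 stood apart: Cd8a was 2973 and Cd8b1 8426 there, and no other array exceeded 81.3 and 164, so a CD8 signal was present in a sample labelled double-negative. Cd4 was also highest there, at 699, 184 and 172 on RAG1-deficient and 273, 101 and 52.3 on double mutant replicates 1, 2 and 3. The double mutant array was the lower in every title style, but Cd4 did not pass the tests described below. The titles of RAG1-deficient replicates 1 and 3 also contain WT; the groups follow the sample descriptions, which name RAG1 deficiency. Values without RAG1-deficient replicate 1 are given for several results that change when it is left out.

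No chemokine or receptor probe set passed the test between the groups. A probe set had to exceed an intensity of 86.5 (the 40th percentile) on 3 or more arrays to be tested. This filter level was met by 17 of the 47 probe sets, of 16 genes. A difference below is the mean log2(intensity + 23) of the double mutant less that of the RAG1-deficient arrays, a scale that understates the change of dim probe sets, and SE is the standard error of the unpaired limma fit. In that fit 0 of the 17 rose and 0 fell after adjustment over all 7642 tested probe sets, against a background of 0.0393% called higher and 0.0% lower. Each of the 17 had an adjusted p of 0.99994. At an unadjusted p under 0.05 in that fit, 0 members were higher and 2 lower, against 2.29% and 0.903% of all tested probe sets. With title style as a block, which compares the arrays within each style, limma again called 0 members in either direction, against 0.563% called higher and 0.105% lower, and their adjusted p lay between 0.164 and 0.960. At an unadjusted p under 0.05 that fit gave 5 members lower and 0 higher, against 5.4% and 7.73% of all tested probe sets. Of these 5, the 95% intervals in the block fit were -1.39 to -0.38 for Ccr2 and -1.93 to -0.12 for Ccl9. Those of Cx3cr1, Ccr9 and Ccl8 were -1.16 to -0.06, -1.62 to -0.02 and -3.29 to -0.01, all before adjustment.

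As a list the tested members lay slightly lower in the double mutant. Their median log2 difference was -0.18, against -0.0021 over all tested probe sets, with 10 below 0 and 7 above (50.4% below over all). Pair by pair the median was -0.07 (numbered), -0.52 (Rag) and -0.04 (Thy). It was 0.17 without RAG1-deficient replicate 1, the array with the CD8 signal, -0.57 when RAG1-deficient replicate 3 was left out and -0.55 when double mutant replicate 1 was, so both its sign and its size rest on single arrays. The groups did not overlap for 2 members, Ccr2 and Ccl22, both lower in the double mutant, where 2.92% of all tested probe sets lay lower and 4.21% higher without overlap. The plot of all tested probe sets by array shows how far the other 15 overlap.

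**Figure D1:**
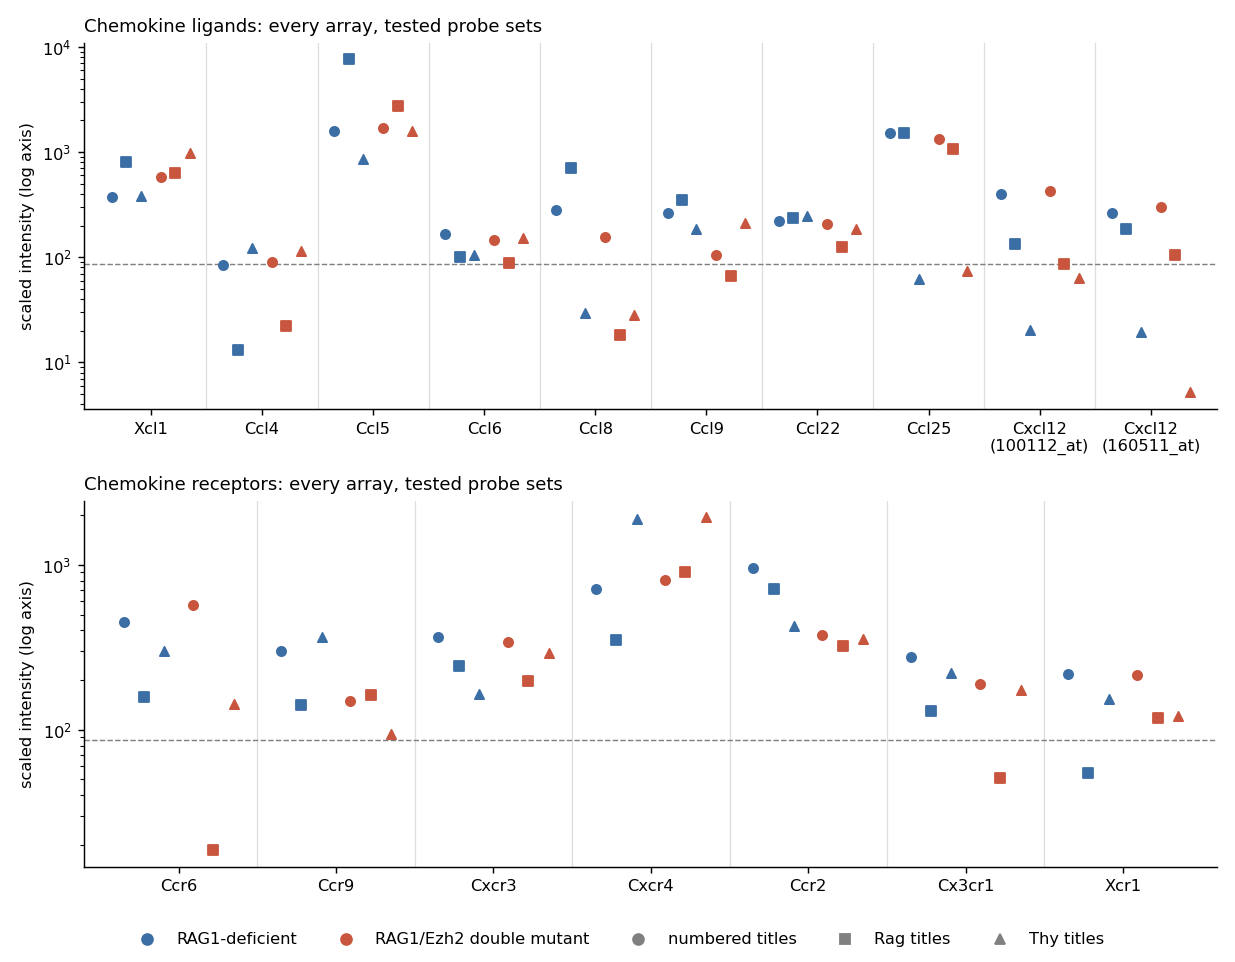
Scaled intensity (log axis) of the 17 tested probe sets on each of the 6 arrays, ligands above and receptors below, with colour for the group and shape for the title style; the dashed line is the filter level of 86.5. Points compare within a probe set only; Ccr2 and Ccl22 are the probe sets whose groups do not overlap, and Ccl25 and Cxcl12 are lowest on the 2 Thy arrays.

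Among the thymic ligands, Ccl25 varied with title style and not measurably with genotype. Ccl25, the ligand of Ccr9 known from thymic epithelium and dendritic cells, read 1502, 1502 and 62.3 on RAG1-deficient replicates 1, 2 and 3. On double mutant replicates 1, 2 and 3 it read 1318, 1076 and 74.6. The numbered and Rag arrays of both groups were high and both Thy arrays were low. The group difference was -0.15 ± 1.28 (SE), with a 95% interval from -3.08 to 2.77, while the means of the 3 styles spanned 3.97 log2 units. Its group difference turned positive when some single arrays were left out, for example 0.54 without RAG1-deficient replicate 1 or 2. With title style in the limma fit, an F test of the style terms, added after the values were seen, gave an adjusted p of 0.000509 for Ccl25. Within styles the pairs differed by -0.18, -0.47 and 0.19 (numbered, Rag, Thy).

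Cxcl12, the ligand of Cxcr4 made by many stromal cells, followed a similar order on all 3 of its probe sets. The first (100112_at) read 403, 132 and 20.1 on RAG1-deficient and 424, 85.5 and 63.8 on double mutant replicates 1, 2 and 3. The second (160511_at) read 263, 184 and 19.4 against 301, 105 and 5.2. On both, the numbered arrays were highest and the Thy arrays lowest in either group. The group differences were 0.19 ± 0.88 (SE) and -0.37 ± 0.98 (SE), opposite in sign, and the style terms had an adjusted p of 0.00859 and 0.00401 in limma. Without RAG1-deficient replicate 1 the group differences were 0.98 and 0.17. The remaining probe set (162234_f_at), of a type that can detect related transcripts, lay above the filter level on the numbered arrays only (87.1 and 104).

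Some markers of other thymic cells moved in the same direction as Ccl25 and Cxcl12, and others did not. The keratins Krt8 and Krt18 (94270_at) of simple epithelium lay between 522 and 1336 on the 4 numbered and Rag arrays and between 27.3 and 175 on the 2 Thy arrays. They were the 2 of 5 tested thymic epithelium probe sets lowest on the Thy arrays. Epcam, an epithelial adhesion protein, read 116, 217 and 236 on RAG1-deficient and 119, 149 and 193 on double mutant replicates 1, 2 and 3. Within each group it was highest on the Thy array, but its style terms did not pass (adjusted p = 0.115 in limma). Cldn4, a tight junction protein, read 1159, 647 and 577 against 453, 197 and 511. It was the 1 of the 5 tested without overlap, lower in the double mutant (-1.03 ± 0.40 SE), where 2.92% of all tested probe sets lay lower without overlap. Cldn4 did not pass in either limma fit. Aire, the medullary regulator of tissue antigens, read 165, 139 and 173 against 217, 130 and 159. The whole thymic epithelium list (8 of 9 listed genes had a probe set) summed to 4009, 3010 and 1220 on RAG1-deficient and 3144, 1931 and 1186 on double mutant replicates 1, 2 and 3. Its defining members Foxn1 and Krt5 were at most 67.0 on every array. The antigen-presenting and dendritic list (11 of 11 genes) summed to 33562, 25996 and 7381 against 24347, 12469 and 7305. Hba-a1, an alpha globin of red cells, read 375 and 794 on the Thy arrays against 16352 or more on the other 4. Fibroblast and endothelial markers (8 of 8 genes) summed to 2275, 2063 and 1773 against 2395, 1847 and 2141 with no such step, although Dcn, a stromal proteoglycan, was lowest on the Thy arrays (65.7 and 55.2, with 133 or more on the other 4). The part of these cells in the levels of Ccl25 and Cxcl12 was not tested.

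**Figure D2:**
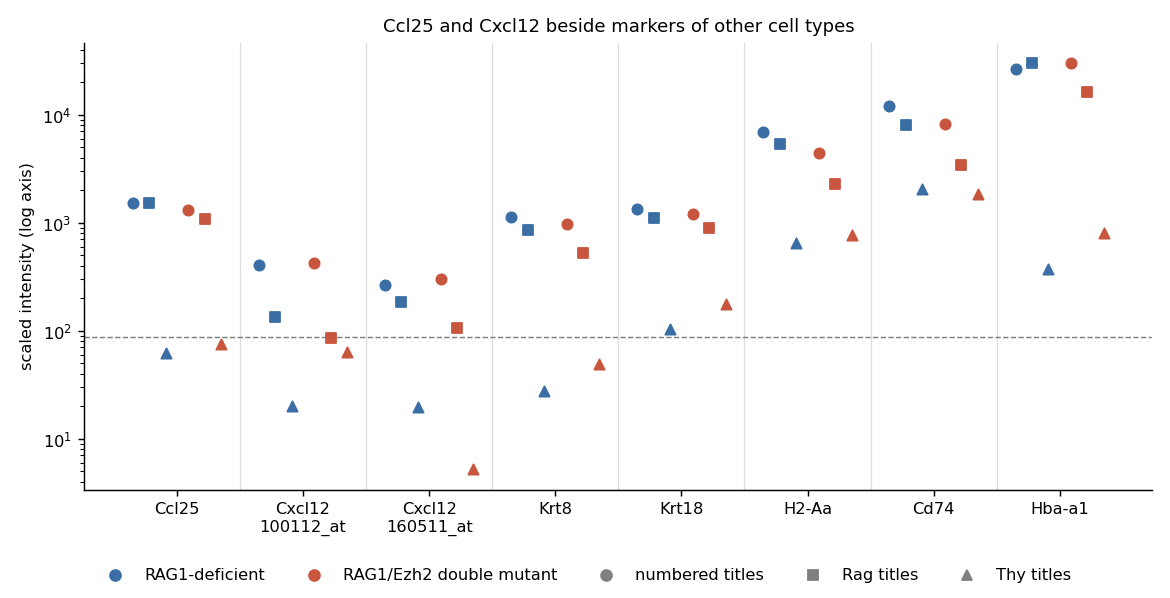
Scaled intensity (log axis) of Ccl25, the 2 tested Cxcl12 probe sets and markers of epithelium (Krt8, Krt18), antigen-presenting cells (H2-Aa, Cd74) and red cells (Hba-a1) on each array, with colour for the group and shape for the title style; the dashed line is the filter level of 86.5. The 2 Thy arrays are the lowest in every column, in both groups.

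The start regions of Ccl25, Cxcl12 and Ccr2 are shown because the first 2 moved together across arrays and Ccr2 had the smallest p between genotypes. RefSeq (GRCm38.p6) lists 2 starts for Ccl25, which the probe set's intensity does not tell apart. Each window runs 5′ to 3′ over 300 bases, with capitals marking CpG, the dinucleotide that is dense at many Polycomb-bound starts.
Ccl25 upstream start (chr8:4324960-4325259, plus strand): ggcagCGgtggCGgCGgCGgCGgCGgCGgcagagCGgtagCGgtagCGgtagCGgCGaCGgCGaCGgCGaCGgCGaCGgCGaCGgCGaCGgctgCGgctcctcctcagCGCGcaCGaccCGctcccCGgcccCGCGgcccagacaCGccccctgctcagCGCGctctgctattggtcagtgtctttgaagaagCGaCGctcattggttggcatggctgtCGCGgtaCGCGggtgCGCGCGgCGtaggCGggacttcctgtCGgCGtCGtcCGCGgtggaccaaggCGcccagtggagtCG
Ccl25 downstream start (chr8:4349338-4349637, plus strand): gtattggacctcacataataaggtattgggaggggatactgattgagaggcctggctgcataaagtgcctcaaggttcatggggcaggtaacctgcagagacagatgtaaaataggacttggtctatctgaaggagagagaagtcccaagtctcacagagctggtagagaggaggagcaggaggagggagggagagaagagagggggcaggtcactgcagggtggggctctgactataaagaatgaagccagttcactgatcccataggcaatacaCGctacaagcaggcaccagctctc
Cxcl12 (chr6:117168285-117168584, plus strand): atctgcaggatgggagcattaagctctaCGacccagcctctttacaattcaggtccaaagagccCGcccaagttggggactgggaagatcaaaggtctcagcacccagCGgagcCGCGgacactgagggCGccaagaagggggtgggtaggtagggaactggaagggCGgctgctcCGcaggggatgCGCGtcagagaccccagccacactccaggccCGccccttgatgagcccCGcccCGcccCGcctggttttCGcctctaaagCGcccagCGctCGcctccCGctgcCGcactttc
Ccr2 (chr9:124101933-124102232, plus strand): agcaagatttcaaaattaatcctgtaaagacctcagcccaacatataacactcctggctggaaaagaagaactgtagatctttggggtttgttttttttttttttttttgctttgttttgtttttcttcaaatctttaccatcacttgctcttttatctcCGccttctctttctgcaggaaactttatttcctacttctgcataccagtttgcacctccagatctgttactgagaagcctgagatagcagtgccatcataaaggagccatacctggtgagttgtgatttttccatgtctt
The windows hold 52 CpG at the upstream and 1 at the downstream start of Ccl25, 20 at Cxcl12 and 1 at Ccr2, where the median over all 32851 windows of the table is 7. For the chemokine and receptor genes 36 windows of 34 genes were found, with a median of 4 CpG. Cxcr4, with 20 CpG, and Ccr9, with 4, are examples of a CpG-dense and a CpG-poor receptor start.

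Short motifs were searched on both strands of the same windows. The TATA box letters TATAAA were in 11 of the 36 windows, among them the downstream start of Ccl25, Ccl8 and Ccl9, against 13.6% of all windows. The GC box letters GGGCGG were in 6 of 36, Cxcl12 and Cxcr4 included, against 35.7%. The letters of these motifs do not overlap each other, and a match describes the letters only.

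Ccl22 is made by dendritic cells and acts on Ccr4. It read 220, 237 and 247 on RAG1-deficient and 209, 126 and 186 on double mutant replicates 1, 2 and 3. All 3 double mutant values lay below all RAG1-deficient values, by a narrow margin for double mutant replicate 1. The difference was -0.42 ± 0.28 (SE), with a 95% interval from -1.05 to 0.22, and it did not pass. It was -0.23 without double mutant replicate 2. Of the 13 tested probe sets of antigen-presenting and dendritic markers, 12 lay below 0 (50.4% over all tested probe sets), with a median log2 difference of -0.36. In both limma fits 0 of the 13 passed, and 8 differed by title style (30.2% over all). The part of these markers in Ccl22 was not tested.

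Among the inflammatory CC ligands, Ccl9 and Ccl8 had the most negative differences and neither passed. Ccl9, a macrophage-derived ligand of Ccr1, read 266, 348 and 187 on RAG1-deficient replicates 1, 2 and 3 against 106, 66.0 and 211 on the double mutant arrays. The double mutant array was the lower in the numbered and Rag pairs (-1.17 and -2.06) and slightly the higher in the Thy pair (0.16). The difference was -1.02 ± 0.41 (SE), with a 95% interval from -1.96 to -0.08, an unadjusted p of 0.0366 in the unpaired limma fit and an adjusted p of 0.332 with the block. With the Rag pair left out of the block fit it was -0.50.

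Ccl8, a monocyte attractant made by macrophages, read 281, 701 and 29.7 against 155, 18.1 and 28.4. The high RAG1-deficient mean came from replicates 1 and 2, and all but 1 of the other arrays were under 30 units. The difference was -1.65 ± 0.94 (SE), of which the Rag pair gave -4.14, the numbered pair -0.78 and the Thy pair -0.04. Without RAG1-deficient replicate 2 it was -0.81.

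Ccl5, an attractant released by T and NK cells, was high on the same array. It read 1602, 7620 and 867 on RAG1-deficient and 1681, 2727 and 1599 on double mutant replicates 1, 2 and 3. RAG1-deficient replicate 2 lay 1.47 log2 units above every other array, and the other 5 overlapped between groups. The difference was -0.18 ± 0.68 (SE) with all arrays and 0.71 without that array.

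RAG1-deficient replicate 2 was also the array with the highest S100a8 (4809) and S100a9 (3706), genes of neutrophils and monocytes; no other array exceeded 1524 and 1128. The macrophage and neutrophil lysozyme Lyz2 (100611_at) was also highest there (2719), but the other tested markers, Csf1r, Cd14 and Elane, were not. The whole monocyte, macrophage and neutrophil list (11 of 12 genes) summed to 3242, 12422 and 3347 on RAG1-deficient and 4658, 2900 and 5207 on double mutant replicates 1, 2 and 3. Without S100a8 and S100a9, which gave 8516 of the 12422, the sums were 2787, 3906 and 2339 against 2240, 1862 and 2703. Adgre1 and Itgam, defining markers of macrophages and myeloid cells, were at most 47.6 and 32.7 on every array. Whether these cells contributed to Ccl8, Ccl9 or Ccl5 was not tested.

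Ccl6, a myeloid ligand related to Ccl9, overlapped fully, at 167, 99.4 and 105 against 145, 87.2 and 152 (difference 0.04 ± 0.36 SE). Ccl4, which activated T and NK cells release, read 84.7, 13.1 and 123 against 89.9, 22.4 and 116. Both groups were low on the Rag arrays and near the filter level elsewhere, so Ccl4 differed by style (adjusted p = 0.0250 for the style terms in limma) and by 0.11 ± 0.69 (SE) between groups. Ccl3, its close relative, was too dim to test; it was highest on the Thy arrays (91.6 and 128) and at most 76.1 elsewhere. Ccl5, Ccl9, Ccl6, Ccl3 and Ccl4 are adjacent in the RefSeq gene order, and their array patterns differed as listed.

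Xcl1, the ligand of the dendritic cell receptor Xcr1 that NK and innate-like T cells make, lay higher in the double mutant in 2 of 3 pairs. It read 371, 805 and 381 on RAG1-deficient and 576, 633 and 982 on double mutant replicates 1, 2 and 3, and the groups overlapped through the Rag array of the RAG1-deficient group only. The difference was 0.53 ± 0.35 (SE), with a 95% interval from -0.26 to 1.32, and pairs of 0.60, -0.34 and 1.31 (numbered, Rag, Thy). In the block fit without the Rag pair it was 0.96 with an adjusted p of 0.0105, a call made with 2 arrays a group, which leave 1 residual degree of freedom before limma pools the spread over probe sets. The block fit without the Thy pair gave 0.13 (adjusted p = 0.876 in limma), and the unpaired difference ran from 0.30 without double mutant replicate 3 to 0.88 without RAG1-deficient replicate 2. Neither Rag title contains DN, whereas the other 4 titles do. The NK and innate lymphoid list (8 of 11 genes) summed to 4535, 4546 and 3052 against 10340, 9698 and 8192. Most of that gap was Gzma, which rose with Gzmb in the block fit, while Klrd1 (-0.32), Il2rb (-0.02) and Ncr1 (0.45) did not pass in either fit, and their part in Xcl1 was not tested.

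Among the receptors, Ccr2 was the member with the smallest p. Ccr2, the receptor for Ccl2 and its relatives, is known from monocytes and also from NK and innate-like lymphocytes. It read 954, 712 and 426 on RAG1-deficient and 375, 321 and 353 on double mutant replicates 1, 2 and 3. All RAG1-deficient arrays lay above all double mutant arrays, and the double mutant values lay close together. The means were 697 ± 264 (SD, n = 3) and 349 ± 27.3 (SD, n = 3). The difference was -0.88 ± 0.30 (SE), with a 95% interval from -1.57 to -0.19. The unadjusted p was 0.0180 in the unpaired limma fit, and the adjusted p was 0.99994 there and 0.164 with the block. The exact two-sided permutation p was 0.1, the smallest that 3 against 3 arrays allow. The 3 pairs all lay below 0, at -1.30, -1.10 and -0.26 (numbered, Rag, Thy), and the unpaired difference was -0.63 without RAG1-deficient replicate 1. Of the 7 tested probe sets of monocyte, macrophage and neutrophil markers, 4 lay below 0 (median -0.37), against 50.4% of all tested probe sets. Of the 7 tested of the NK and innate lymphoid list, 3 lay below 0 (median 0.36). The part of either list in Ccr2 was not tested.

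Other myeloid receptors did not follow Ccr2 closely. Cx3cr1, the fractalkine receptor of monocytes and macrophages, read 277, 130 and 221 against 191, 51.2 and 175. The double mutant array was the lower in every pair (-0.49, -1.04 and -0.30) with overlap between groups, and its difference of -0.61 ± 0.47 (SE) was -0.12 without double mutant replicate 2. Xcr1, known from cross-presenting dendritic cells, read 217, 54.6 and 155 against 215, 119 and 122, a difference of 0.19 ± 0.47 (SE). Ccr1, Ccr3 and Cxcr2 lay under the filter level on all 6 arrays. Ccr3, the neighbour of Ccr2 in the RefSeq order, read at most 70.8. Ccr2, Cx3cr1, Ccl22 and Ccl8 were the 4 members lower in all 3 pairs, where 17.1% of all tested probe sets were.

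Ccr9, the Ccl25 receptor that marks thymocytes on their way through the cortex, was lower in 2 of 3 pairs. It read 301, 141 and 363 on RAG1-deficient and 150, 162 and 94.2 on double mutant replicates 1, 2 and 3. The low RAG1-deficient value was that of the Rag array, which lies within the double mutant range. The difference was -0.82 ± 0.39 (SE), with a 95% interval from -1.70 to 0.07, and the pairs gave -0.91, 0.17 and -1.72 (numbered, Rag, Thy). With title style as a block the interval was -1.62 to -0.02, with an adjusted p of 0.373 in limma. In the block fit without the Rag pair Ccr9 fell by 1.31 with an adjusted p of 0.00535, again with 2 arrays a group. The block fit without the Thy pair gave -0.37 (adjusted p = 0.723 in limma). With 1 array left out the unpaired difference ran from -1.19 to -0.57. Without RAG1-deficient replicate 1, the array with Cd8a and Cd8b1, the unpaired difference was -0.70.

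Cxcr4, the Cxcl12 receptor that double-negative thymocytes use for beta-selection, was highest on the Thy arrays of both groups. It read 718, 348 and 1885 against 808, 905 and 1945. Only the Rag pair differed visibly, by 1.32, against 0.17 and 0.04 in the numbered and Thy pairs. The group difference was 0.51 ± 0.57 (SE), and -0.049 without RAG1-deficient replicate 2. The Thy arrays, highest for Cxcr4, were lowest for its ligand Cxcl12, and the Cxcr4 style terms had an adjusted p of 0.0143 in limma.

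Ccr6, the Ccl20 receptor found on B cells and on some innate-like T cells, read 451, 158 and 302 against 570, 18.6 and 143. Double mutant replicate 2 lay 1.99 log2 units below every other array, and the difference of -0.92 ± 0.84 (SE) became 0.047 without it. Cxcr3, the receptor of the interferon-induced ligands on activated T and NK cells, read 365, 243 and 164 against 339, 196 and 293 and overlapped fully (0.12 ± 0.34 SE). Ccr7, which guides thymocytes to the medulla, was not tested, at 104, 53.9 and 30.6 against 59.7, 44.0 and 13.7. Ccr4 and Ccr8, receptors of later thymocytes, read at most 47.0 and 33.7 on every array.

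**Figure D3:**
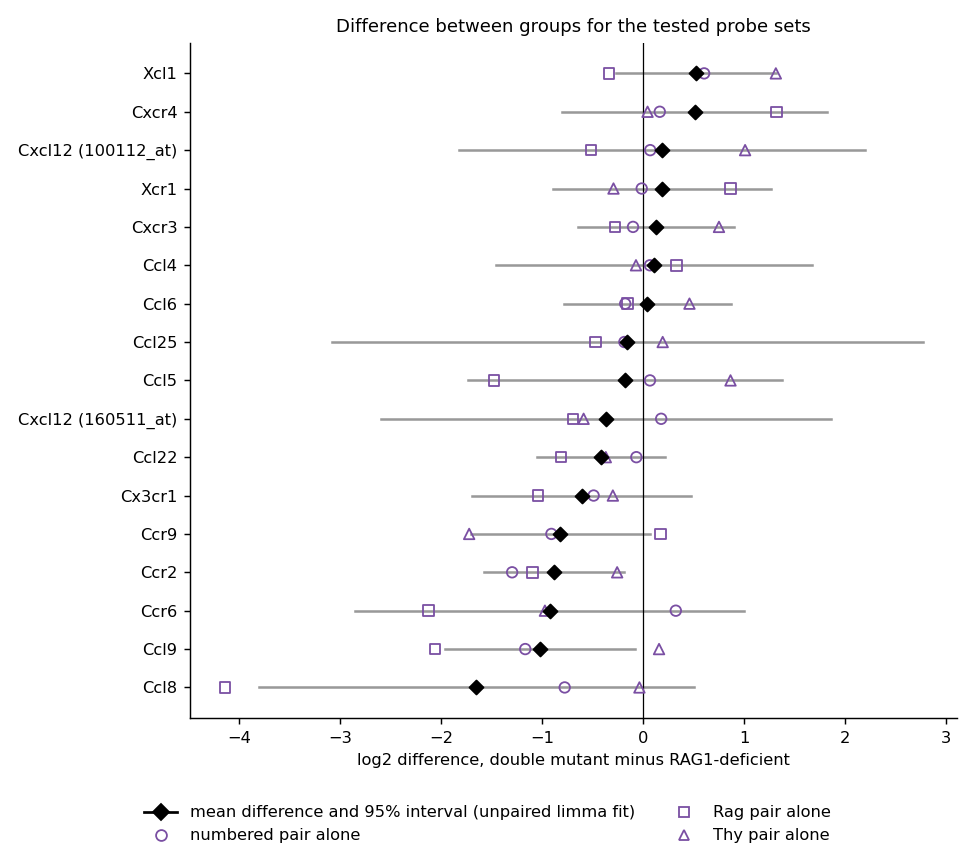
Log2 difference of each tested probe set (double mutant minus RAG1-deficient): filled diamonds and lines give the mean and its 95% interval in the unpaired limma fit, and open symbols give the 3 title-style pairs alone. The intervals of Ccr2 and Ccl9 lie below 0, both before adjustment over all probe sets. The Rag pair (squares) lies outside the range of the other pairs for Ccl8, Ccl5, Cxcr4, Ccr6, Ccl9 and Ccr9, among others.

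More members differed between title styles than between genotypes. In the F test of the style terms, 8 of 17 members passed, against a background of 30.2% of all tested probe sets. The count was 2 of 17 without double mutant replicate 1 (12.4% of all tested) and 3 of 17 without RAG1-deficient replicate 1 (7.90%). With all 6 arrays they were Ccl25, both Cxcl12 probe sets, Cxcr4, Ccr6, Ccl4, Cx3cr1 and Ccl5. The Thy arrays were lowest for 4 of these 8 (Ccl25, both Cxcl12 probe sets and Ccl5), against 23.8% of all probe sets that passed this test (7.2% of all tested), and the Rag arrays for Cxcr4, Ccr6, Ccl4 and Cx3cr1. Ccl25 passed in all 12 alternatives tried for this test, Cxcl12 with at least 1 probe set in 11 and Cx3cr1 in 6. Over the 17 members the style means spanned a median of 1.25 log2 units, against 0.62 over all tested probe sets, and the span exceeded the group difference for 13 members, against 88.4% of all. What the title styles stand for is not in the labels.

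Read singly, the arrays differed in how many chemokine and receptor probe sets were above the filter level. RAG1-deficient replicates 1, 2 and 3 had 25, 16 and 15 of the 47 above it, and double mutant replicates 1, 2 and 3 had 21, 11 and 15. Over all probe sets the same shares were 64.3%, 55.2% and 61.5%, and 61.8%, 55.3% and 62.2%. The numbered arrays thus had the most members above it in both groups, and RAG1-deficient replicate 1 was the highest array for 21 of the 47 (26.2% of all probe sets). An array standing at least 1 log2 unit above the other 5 was found for 2 tested members (Ccl5 and Ccl8, both on RAG1-deficient replicate 2), against 0.707% of all tested probe sets. An array standing as far below the other 5 was found for 3 (Ccr6 and Cx3cr1 on double mutant replicate 2, Cxcl12 100112_at on RAG1-deficient replicate 3), against 2.63%.

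The remaining 30 probe sets were too dim to test, and 26 genes had no tested probe set. Of these 30, 19 never exceeded the filter level, among them the neutrophil-attracting ligands Cxcl2 and Cxcl5, the B cell zone pair Cxcl13 and Cxcr5, and the atypical receptors Ackr1 and Ackr3. The other 11 exceeded it on 1 or 2 arrays. In 8 of these 11 that was on numbered arrays alone. Ccl17, a dendritic cell ligand of Ccr4, read 317, 107 and 22.9 on RAG1-deficient and 60.3, 31.1 and 21.5 on double mutant replicates 1, 2 and 3. Cxcl9, an interferon-induced ligand, read 91.5, 78.3 and 4.6 against 154, 14.9 and 7.6, so both Thy arrays were lowest.

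Ackr4, the scavenger of Ccl19, Ccl21 and Ccl25 known from thymic epithelium, read 197, 24.8 and 25.9 against 140, 73.2 and 70.8. Cx3cl1 (98008_at), the ligand of Cx3cr1, was instead highest on the Thy arrays (183 and 147, with 55.7 to 72.5 on the other 4). Its second probe set (161752_r_at) stayed under the filter level, at 15.6, 19.9 and 18.2 against 18.7, 33.9 and 57.8. Ccl3 was the other member above the level on Thy arrays alone. The rest were Ccl1 (94166_g_at, at most 211), Cxcl1 (95348_at, at most 128), Ackr2 (at most 99.2), Ccl2 (at most 97.8), Ccr7 and Cxcl12 (162234_f_at). Ackr3, a scavenger of Cxcl12, was the only one of the 30 without overlap, at 3.8, 3.8 and 2.0 against 17.1, 5.8 and 13.9, all far under the filter level. Among all 4780 probe sets not tested, 2.03% lay higher and 3.47% lower without overlap.

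**Figure D4:**
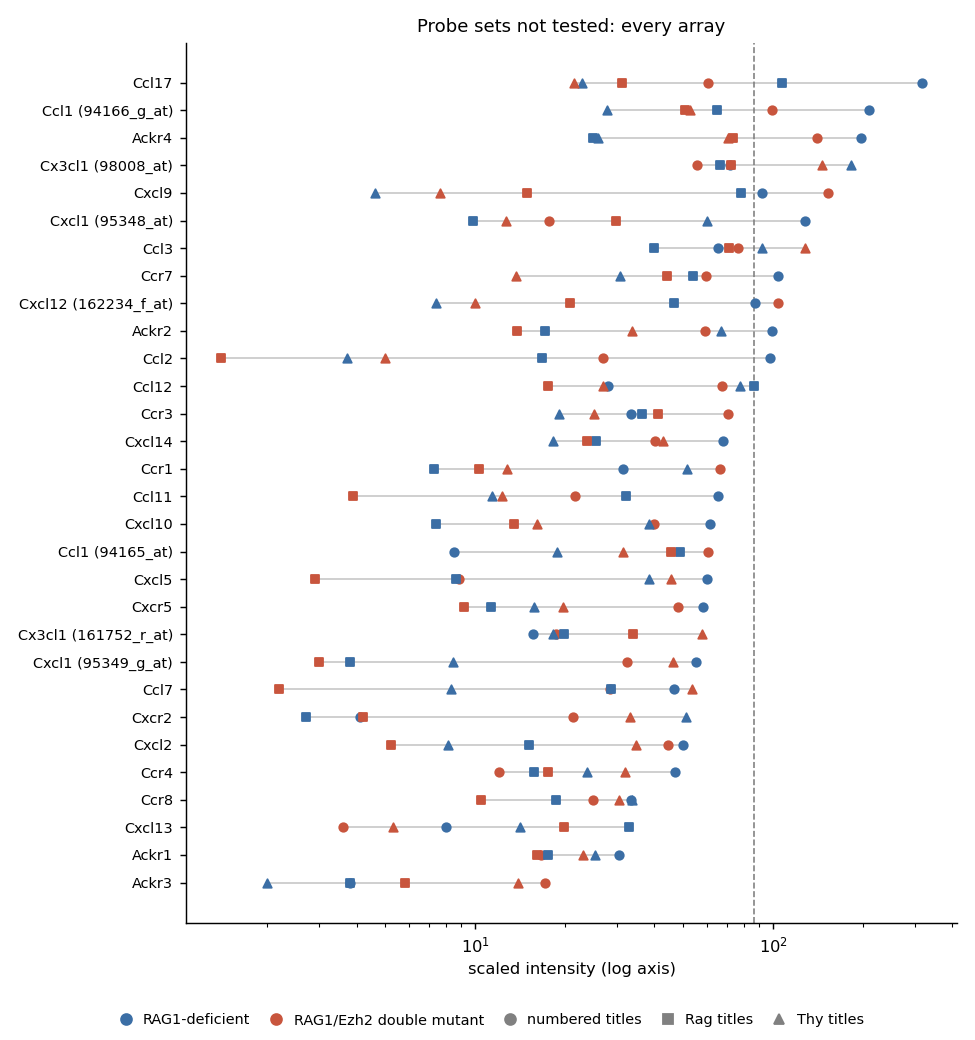
Scaled intensity (log axis) on each array of the 30 chemokine and receptor probe sets that were not tested, with colour for the group, shape for the title style, grey lines for the range and a dashed line at the filter level of 86.5. Points beyond the line are mostly circles, the numbered arrays; Ccl17 reaches 317 on RAG1-deficient replicate 1.

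Genes that carry the signal of chemokine receptors inside the cell did not pass the test in either direction. Of 52 listed genes (G proteins, receptor kinases and arrestins, Rgs proteins, phosphoinositide kinases, GTPases of the cytoskeleton and their exchange factors), 33 were tested with 47 probe sets. In the unpaired and in the block limma fit 0 rose and 0 fell. At an unadjusted p under 0.05 there were 0 in the unpaired fit, against 2.29% of all tested probe sets higher and 0.903% lower. The block fit gave 2 higher and 4 lower of the 47, against 7.73% and 5.4%. The median log2 difference of the 47 was -0.04, with 29 below 0 and 18 above (50.4% below over all tested probe sets). Pak2, a kinase downstream of Rac and Cdc42, gave the 1 probe set without overlap (97821_at), at 589, 639 and 624 against 397, 470 and 581 (-0.36 ± 0.22 SE). Its other tested probe sets were brighter on average and overlapped between groups, at 0.15 ± 0.37 SE (97822_at) and -0.03 ± 0.34 SE (97823_g_at). Over all tested probe sets 2.92% lay lower and 4.21% higher without overlap. Vav1, an exchange factor for Rac, had the smallest p of the list (0.0601 in the unpaired limma fit) on 1 of its 3 tested probe sets (97562_r_at), at 193, 206 and 264 against 48.2, 56.4 and 236. Akt1 (0.47 ± 0.32 SE), Rgs2 (-0.44 ± 0.35 SE), Rhoa (101113_at, -0.29 ± 0.24 SE) and Rgs10 (160629_at, -0.60 ± 0.51 SE) likewise did not pass. The other tested Rhoa probe sets differed in sign, at 0.37 ± 0.34 SE (101112_g_at) and -0.40 ± 0.45 SE (101111_at). The other tested Rgs10 probe set (161765_f_at) gave -0.41 ± 0.46 SE.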

How the data were processed

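Total RNA was measured on 6 single-colour Affymetrix mouse arrays, and the authors deposited 1 linear intensity for each of 12488 probe sets and array. The software is not given in the sources used here. The 2%-trimmed means of the arrays lay between 500.293 and 500.37, so the values had been scaled to 1 mean, and a shift common to most RNAs would not show. Detection calls were not used. Precision is limited by the number of arrays. Probe sets at low intensity may hold little but background.

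Each sample was grouped from its description. The 66 control probe sets were left out. Of the others, 10833 name 1 gene in the platform table, 396 several and 1193 none; 10817 were matched by Entrez number to RefSeq (GRCm38.p6), used for names, gene order and start sequences.

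Values were analysed as log2(intensity + 23), 23 being the 20th percentile of all values. Probe sets above 86.5 on at least 3 arrays were tested with limma 3.58.1 in R 4.3.3 (lmFit, eBayes with trend; two-sided; Benjamini-Hochberg over all 7642; threshold 0.05), and the script was tested on simulated data. Deviations from the group means correlated at 0.570, 0.736 and 0.602 between the arrays of a title style, and between -0.544 and 0.0394 across styles, so a fit that blocks on title style is given too. The pairing is read from titles and data, not stated by a label. Values given on every array are those of members past a threshold, without overlap, among the 12 smallest p, standing apart on 1 array, or known in thymus biology; members under the filter level are named where an array exceeded it, and other names were chosen after their values were seen. Members, gene lists and tests were chosen with earlier results of these data known. The title-style F test was added after seeing the data. Figures used matplotlib 3.10.9 in Python 3.11.15.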

Additional observations from a re-analysis of the deposited data

How the results depend on the processing

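No alternative with all 6 arrays called a chemokine or receptor probe set: limma gave 0 in either direction with the replicate block, 11.5 or 46 as pseudocount, no filter (47 probe sets), a filter at the 60th percentile (7), quantile normalization, no trend, and the block with quantile normalization or without the filter. Leaving out arrays or pairs gave 0 to 1 higher and 0 to 1 lower; the calls were Xcl1 and Ccr9 in the block fit without replicate 2. The count without overlap was 1 at the 60th percentile, where fewer probe sets are tested, and 2 to 6 with arrays left out, where fewer values are compared. The matching share over all probe sets is not given for these settings, so the counts are not read as a result about the members. The median difference ran from -0.57 to 0.17 with arrays left out. The title-style count was 5 with quantile normalization, 4 of 7 at the 60th percentile and 2 to 10 with 1 array left out (2 without double mutant replicate 1, 3 without RAG1-deficient replicate 1); the cause was not tested.

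Over all tested probe sets limma called 3 higher and 0 lower in the unpaired fit, 43 and 8 with the block, 6 and 0 at the 60th percentile, 5 and 0 with quantile normalization, 17 and 0 with both block and quantile normalization, 5 and 0 with the block and no filter, 0 to 6 and 0 with 1 array left out, and 12 and 2, 127 and 64, or 3 and 0 in the block fit without replicate 1, 2 or 3.

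Of 23 probe sets followed (17 members, 6 signalling), 13 kept their sign in every alternative run. The others turned only with arrays left out; with 1 array left out the ranges were Ccl25 -1.54 to 1.06, Cxcl12 -0.67 to 0.98 (100112_at) and -1.21 to 0.58 (160511_at), Ccl4 -0.49 to 0.60, Ccl5 -0.84 to 0.71, Ccl6 -0.078 to 0.26, Ccr6 -1.87 to 0.047, Cxcr3 -0.135 to 0.39, Cxcr4 -0.049 to 1.13 and Xcr1 -0.28 to 0.53. In the block fit without replicate 2, Ccl25 was 0.0047, Ccl4 -0.00098, Ccl5 0.47 and Xcr1 -0.15; without replicate 3, Cxcl12 (100112_at) was -0.22, Ccl6 -0.16 and Cxcr3 -0.19. The cause was not tested. The block with all pairs changed no member's call. Ccr2 stayed between -1.20 and -0.63. Members near the filter level are the least certain, and in the unpaired fit the 95% interval was over 1 log2 unit wide for each of the 17.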

Other observations

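Chemokine genes outside the symbol rule were also read. The platelet chemokine Pf4 was dim on all arrays, at 85.4, 46.2 and 19.1 on RAG1-deficient and 65.0, 9.4 and 23.1 on double mutant replicates 1, 2 and 3. The receptor-like genes Ccrl2 and Ccr1l1 exceeded the filter level on at most 2 arrays, with highest values of 104 and 98.8. Another 4 probe sets name several genes. The Ccl19 group (96950_at) read 349, 156 and 289 against 237, 155 and 275, overlapping between genotypes. The Ccl21 group (103012_at), ligands of Ccr7, read 229, 91.3 and 77.2 against 83.5, 62.3 and 21.0, lower in the double mutant in each pair but with overlap. The 2 probe sets of the Ccl27 group were highest on the Rag arrays of both groups, at 218 and 187 on the first (100972_s_at) and 293 and 252 on the second (100973_i_at).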
